A study of Mus musculus with 12 samples.

Results

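The mitochondrial ribosomal proteins were examined as the protein-coding mouse genes whose GRCm38 symbol begins with Mrpl or Mrps followed by a digit and that held at least 30 reads in sum over the 12 libraries. Of 78 such genes 77 met this rule, among 15138 genes tested. By their place in the mature particle, and by name for Mrps36, 50 were counted with the large and 27 with the small subunit. Mrps36 is known as a subunit of the oxoglutarate dehydrogenase complex and stayed among the 27. Mrps30 and Mrps18a were counted with the large subunit, to which they belong in spite of their names. The member nearest to the read minimum was Mrps18b with 94 reads in sum, and Mrpl53, the gene left out, had 0 reads of 232047713, where 3 reads would be 0.0129 CPM (counts per 1000000 reads of the library). Only uniquely mapped reads were counted, and the part of mapping and annotation in these low counts was not tested. A further 5 pseudogenes with such symbols were not members.

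Mitochondrial ribosomes translate the few messages of the mitochondrial genome, which encode core subunits of the respiratory chain and of the ATP synthase. The ribosomal RNA comes from the mitochondrial genome, whereas each ribosomal protein is encoded in the nucleus, made in the cytosol and imported. Most members have a bacterial homologue. The others were classed here as mitochondria-specific, and several of them lie at the exit of the nascent chain next to the inner membrane. In T cells mitochondrial translation is known to be needed for the growth in respiration that follows activation.

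The study asked how blockade of Lag3 and of PD-L1, alone or together, alters gene expression in CD4+ T cells that meet their antigen for a second time. All 12 mice were Tg4 Nr4a3-Tocky Il10-GFP, which carry a transgenic T cell receptor for a myelin basic protein (MBP) peptide, a Timer fluorescent protein driven by Nr4a3 and a GFP reporter of Il10. Each mouse received 4 mg/kg of [4Y]-MBP peptide under the skin, antibody 24 h later, and 0.4 mg/kg of the peptide 30 min after the antibody. Antibody was 0.5 mg of isotype control (rat IgG1 and rat IgG2a), anti-Lag3 (clone C9B7W), anti-PD-L1 (clone MIH5) or both blocking antibodies in equal parts (co-blockade, CB), with 3 mice in each group. Spleens were taken 12 h after the second peptide, and cells positive for the blue and the red Timer form, which had signalled through the receptor recently and for some time, were sorted for 3' messenger RNA sequencing. The mice were of both sexes and were typically 6 to 8 weeks old according to the methods, with no age or sex given for each mouse. The cells came from mice with 1 transgenic receptor and had passed a gate on signalling, so the samples stand for responding cells and not for the CD4+ compartment.

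Between 16449370 and 22151025 reads lay on genes per library. Every CB library, at 20190254 to 22010631 reads, was deeper than every isotype library, at 16449370 to 18930284 reads. All 8 CD4+ T cell markers were detected, with a summed level of 2427 to 2520 CPM in the CB and 2743 to 2866 CPM in the isotype mice. Summed markers of other cells were also lower with CB than with isotype for red blood cells (150 to 199 against 247 to 453 CPM over 7 genes), NK cells (8.08 to 15.9 against 18.6 to 34.8 CPM over 5 genes) and CD8 T cells (25.04 to 33.2 against 40.9 to 45.3 CPM over 2 genes). B cell markers (330 to 407 against 365 to 425 CPM over 8 genes), myeloid markers (50.8 to 66.7 against 62.5 to 70.7 CPM over 9 genes) and platelet markers (0.0 to 1.83 against 0.127 to 1.48 CPM over 4 genes) overlapped between these groups. The B cell sum was carried by Ighm, with Cd79a at 1.11 CPM at most, and Cd14 was at 0 in each library. Likewise the CD8 T cell sum was carried by Cd8b1 (24.4 to 46.4 CPM over the 12 libraries), with Cd8a at 3.24 CPM at most. The NK cell sum was carried by Gzma (6.54 to 32.8 CPM), with Klrb1c next at a median of 0.830 CPM. The part of these shifts, and of the depth, in the results was not tested.

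Messenger RNA of the mitochondrial ribosomal proteins was higher with co-blockade than with isotype. The summed level of the 77 members was 5343, 5493 and 5523 CPM in the isotype mice and 6549, 6305 and 6436 CPM in the CB mice. The anti-Lag3 mice had 5939, 5575 and 5782 CPM and the anti-PD-L1 mice 5777, 6059 and 5919 CPM. Every CB mouse was above each of the other 9 mice, and every isotype mouse was below them. The group means were 5453 ± 96.7 for isotype, 5765 ± 182 for anti-Lag3, 5918 ± 141 for anti-PD-L1 and 6430.2 ± 122 CPM for CB (SD, n = 3). In bulk RNA, a higher level per cell and a larger share of cells that express a gene cannot be told apart.

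**Figure D1:**
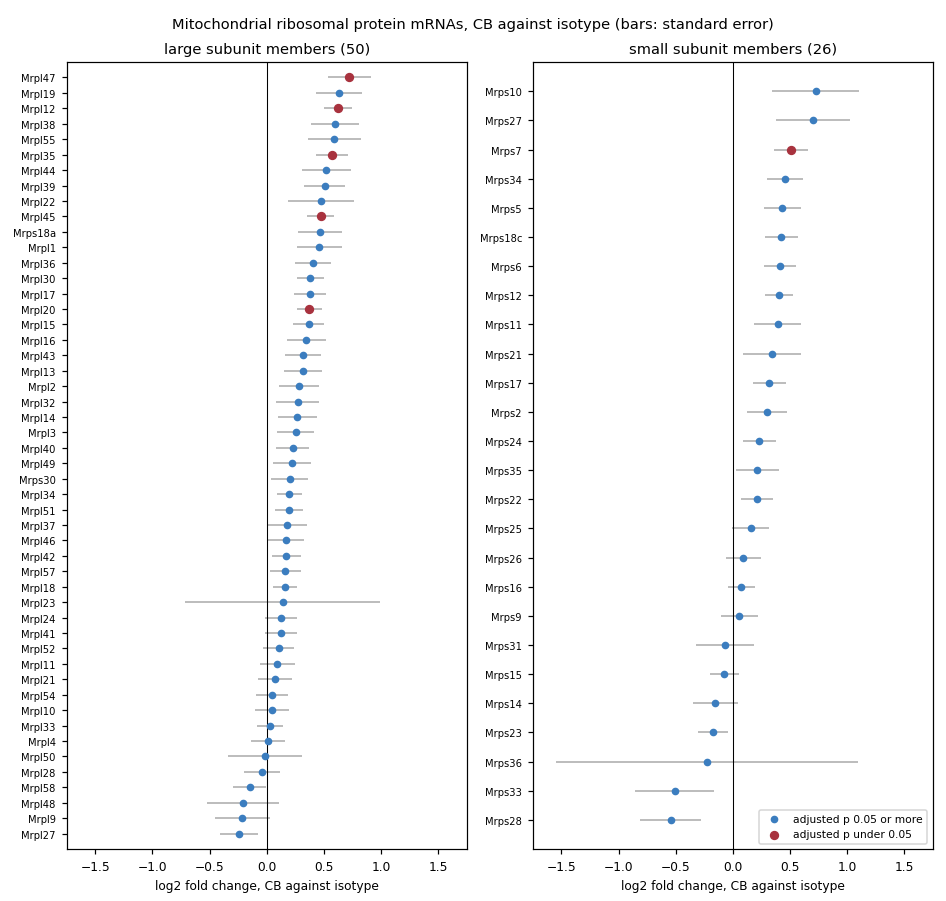
Log2 fold change of each member between CB and isotype (x axis), with its standard error, for 50 large and 26 small subunit members averaging at least 30 reads a library. Red points mark the 6 members with an adjusted p under 0.05, and most points lie to the right of 0.

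Between CB and isotype 6 members were called higher and 0 lower by edgeR's quasi-likelihood test at an adjusted p under 0.05, where 2.33% of all genes tested were called higher and 1.96% lower (4.29% in either direction). Among genes averaging at least 30 reads a library, which 76 of the members reached, the share called higher was 3.33%. The called members were Mrpl12, Mrpl35, Mrpl45, Mrpl47 and Mrpl20 of the large and Mrps7 of the small subunit. At an unadjusted p under 0.05 there were 24 higher and 1 lower member, where 7.64% of all genes were higher and 7.26% lower. The median log2 fold change over the members was 0.23 and 64 of 77 lay above 0, whereas the median over all genes tested was 0.00 with 7388 of 15138 above 0. In 34 of the 77 members (44.2%) each CB mouse was higher than each isotype mouse, and in 0 each was lower. Over all genes tested these shares were 10.4% and 9.62%, and 13.3% of genes averaging at least 30 reads a library were higher in this way.

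**Figure D2:**
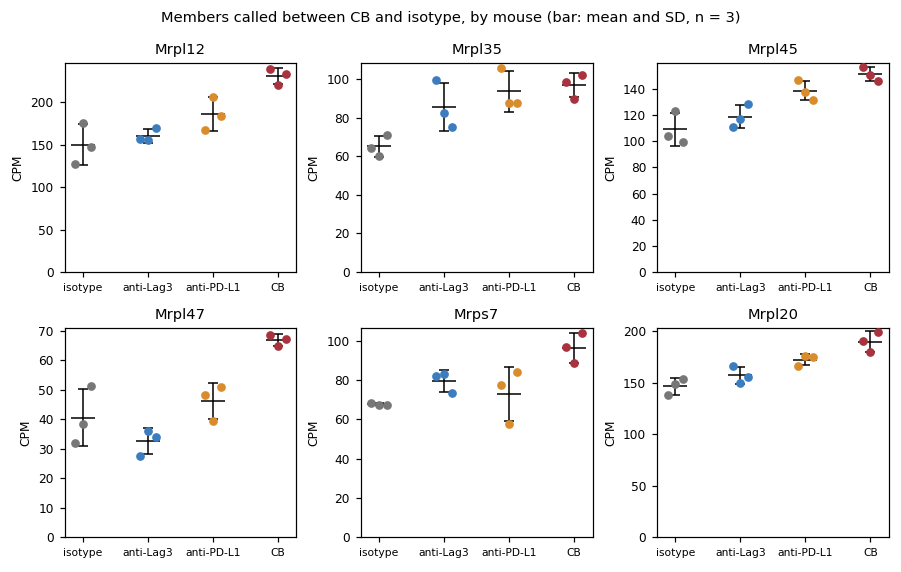
Level in CPM (y axis, from 0) of the 6 members called between CB and isotype in each of the 12 mice, by group, with the mean and SD of 3 mice. The CB mice lie above the isotype mice in each panel, and the groups with a single antibody mostly lie between.

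Mrpl12 lies at chr11:120484613-120489065 on the plus strand and encodes the protein of the flexible stalk that recruits translation factors, and it is also known to bind the mitochondrial RNA polymerase. Its level was 127, 175 and 147 CPM in the isotype mice and 239, 220 and 232 CPM in the CB mice. The anti-Lag3 mice had 156, 155 and 170 CPM and the anti-PD-L1 mice 167, 206 and 184 CPM. All 3 CB mice exceeded the other 9, while both single antibody groups overlapped with isotype. The log2 fold change of CB over isotype was 0.62 ± 0.12 (SE, adjusted p = 0.00205), a 1.54-fold difference. Whichever mouse was left out, it was still called (12 of 12 fits).

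Mrpl10 and Mrpl11, which form the base of the same stalk with Mrpl12, had fold changes close to 0. Mrpl10 measured 77.2, 56.7 and 69.8 CPM in the isotype and 77.8, 71.9 and 60.6 CPM in the CB mice, which overlapped (log2 fold change 0.05 ± 0.15 (SE), adjusted p = 0.972). Mrpl11 measured 68.8, 58.8 and 65.4 CPM with isotype and 77.5, 60.0 and 68.7 CPM with CB, again with overlap (0.09 ± 0.15, adjusted p = 0.890). For both, all 3 anti-PD-L1 mice were above the isotype mice, at 82.4 to 86.2 CPM for Mrpl10 and 71.1 to 88.4 CPM for Mrpl11. The difference between these 2 genes and Mrpl12 was not tested.

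Mrpl47 and Mrpl45 sit where the new chain leaves the particle. Mrpl47, the homologue of bacterial L29 (chr3:32725397-32737605, minus strand), measured 32.0, 38.4 and 51.1 CPM with isotype and 68.7, 64.8 and 67.2 CPM with CB (log2 fold change 0.72 ± 0.19, adjusted p = 0.0224). With anti-Lag3 it measured 27.6, 36.1 and 34.0 CPM and with anti-PD-L1 48.1, 39.4 and 51.0 CPM. The CB mice lay above all others, and the anti-Lag3 mice overlapped with the lower isotype mice. Mrpl45 binds the inner membrane (chr11:97315716-97329920, plus strand), and measured 104, 124 and 99.7 CPM with isotype against 157, 151 and 146 CPM with CB (0.47 ± 0.12, adjusted p = 0.0193). Its anti-PD-L1 mice, at 147, 138 and 132 CPM, were also all above the isotype mice, and its anti-Lag3 mice, at 111, 117 and 128 CPM, overlapped with them.

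Mrpl35 and Mrpl20 are homologues of bacterial proteins of the body of the large subunit. Mrpl35 (chr6:71812997-71826969, minus strand) measured 64.1, 60.3 and 70.8 CPM with isotype and 98.6, 89.9 and 102 CPM with CB (log2 fold change 0.57 ± 0.14, adjusted p = 0.0140). It was already high with 1 antibody, at 99.6, 82.4 and 75.4 CPM with anti-Lag3 and 106, 87.5 and 87.7 CPM with anti-PD-L1. All 9 mice that had received a blocking antibody were above the 3 isotype mice, and the 3 antibody groups overlapped with each other. Mrpl20 (chr4:155802878-155809975, plus strand) measured 138, 149 and 154 CPM with isotype and 191, 180 and 200 CPM with CB (0.37 ± 0.11, adjusted p = 0.0436). It measured 166, 150 and 156 CPM with anti-Lag3, which overlapped with isotype, and 166, 176 and 176 CPM with anti-PD-L1, which lay between isotype and CB.

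Mrps7, which helps to shape the head of the small subunit, was the only called member of that subunit (chr11:115603925-115608036, plus strand). It measured 68.5, 67.2 and 67.5 CPM with isotype and 97.0, 88.6 and 104 CPM with CB (log2 fold change 0.51 ± 0.15, adjusted p = 0.0410). The anti-Lag3 mice, at 82.1, 83.2 and 73.3 CPM, lay between these groups without overlap, and the anti-PD-L1 mice, at 77.4, 57.5 and 84.2 CPM, spread across the isotype level. The last bases of Mrps7 share 119 exonic bases with Mif4gd on the opposite strand, for which 21266 reads were counted against 18554 for Mrps7. The strand setting of the count is not given in the sources used here. Mif4gd had a log2 fold change of 0.16 between CB and isotype.

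These calls depended on single mice. Without CB replicate 3, or without isotype replicate 1, 1 member was called between CB and isotype. There were 2 calls without CB replicate 1, 2 without isotype replicate 2 and 4 without isotype replicate 3. Over the 12 fits that each left out 1 mouse, Mrpl35, Mrpl45 and Mrpl47 were each called in 8, Mrps7 in 6 and Mrpl20 in 5. The log2 fold changes of these 5 genes ranged from 0.33 to 0.92 in the 12 fits. Against a log2 fold change of 0.2, edgeR's test and DESeq2's both called 1 member, Mrpl12.

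Mrps12, a protein of the decoding centre, missed the threshold at 0.41 ± 0.12 on the log2 scale (adjusted p = 0.0579), at 115, 133 and 116 CPM with isotype and 164, 142 and 177 CPM with CB. These groups did not overlap. The 3 members with the largest fold changes that were not called were Mrps10 (0.72 ± 0.38, adjusted p = 0.382), Mrps27 (0.70 ± 0.32, adjusted p = 0.293) and Mrpl19 (0.63 ± 0.20, adjusted p = 0.0790), leaving aside Mrps18b. Mrps10 and Mrps27 were among the low members, at 5.08 to 10.1 and 12.2 to 26.8 CPM with isotype and 12.1 to 12.8 and 25.7 to 34.6 CPM with CB. Mrps18b had the highest fitted value of all, 1.46 ± 2.79 (adjusted p = 0.917), from 94 reads of which CB replicate 3 and anti-PD-L1 replicate 1 held most.

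The lowest fold changes belonged to Mrps28 (-0.54 ± 0.26, adjusted p = 0.333), Mrps33 (-0.51 ± 0.35, adjusted p = 0.508), Mrpl27 (-0.24 ± 0.17, adjusted p = 0.509), Mrps36 (-0.23 ± 1.32, adjusted p = 0.996) and Mrpl9 (-0.21 ± 0.24, adjusted p = 0.780). Mrps28, the counterpart of bacterial S1 at the platform of the small subunit, measured 37.8, 38.5 and 34.9 CPM with isotype and 21.8, 37.3 and 17.1 CPM with CB. CB replicate 2 lay within the isotype range and the other two CB mice below it. Mrpl27, a protein near the peptidyl transferase centre, measured 56.4, 73.8 and 72.8 CPM with isotype and 61.3, 54.0 and 56.0 CPM with CB, which overlapped. Mrps36, which is known as a subunit of the oxoglutarate dehydrogenase complex in spite of its name, was at 1.91 to 2.72 CPM with isotype and 0.577 to 3.46 CPM with CB.

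Among the members named for a place or function of their own, Mrpl12 was called, as given above, whereas Mrps30, Mrps18a and Mrpl58 were not. Mrps30 and Mrps18a, the large subunit proteins with small subunit names, had log2 fold changes of 0.20 ± 0.16 (adjusted p = 0.625) and 0.47 ± 0.19 (adjusted p = 0.219). Mrps18a measured 34.4, 32.8 and 31.8 CPM with isotype and 47.4, 39.0 and 50.2 CPM with CB, without overlap. Mrpl58, a peptidyl-tRNA hydrolase that frees stalled ribosomes and is also built into the large subunit, measured 88.5, 84.5 and 69.2 CPM with isotype and 73.2, 71.3 and 74.0 CPM with CB (-0.15 ± 0.15, adjusted p = 0.728).

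**Figure D3:**
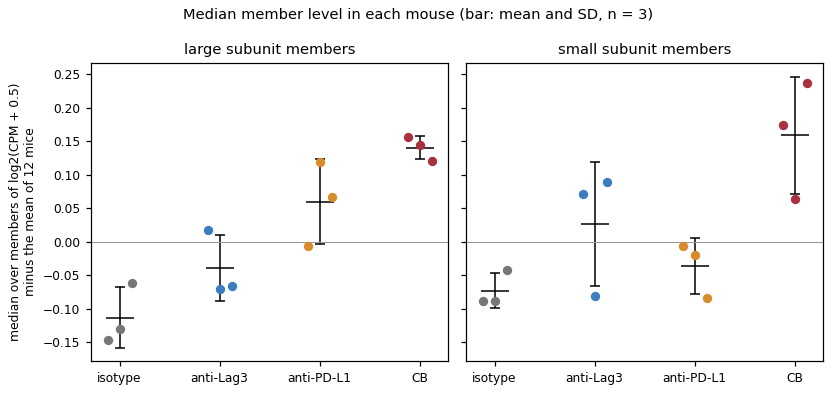
Median over the large (left) and small (right) subunit members of log2(CPM + 0.5) minus the mean of the 12 mice (y axis), for each mouse by group, with the mean and SD of 3 mice. The CB mice are highest in both panels apart from 1 CB mouse in the right panel, which lies among the anti-Lag3 mice.

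The shift with co-blockade was seen in both subunits. In CB against isotype, the median log2 fold change was 0.22 over the 50 large and 0.23 over the 27 small subunit members, with 44 of 50 and 20 of 27 above 0. Called members were 5 of 50 and 1 of 27, and members without overlap in the higher direction 24 of 50 and 10 of 27. Of all genes tested 2.33% were called higher and 10.4% were higher without overlap. Among genes averaging at least 30 reads a library these shares were 3.33% and 13.3%. The called share of the small subunit (3.7%) was thus near that of such genes. The small subunit members were more spread, with quartiles from -0.00 to 0.42 against 0.11 to 0.40 for the large. The difference of the medians, large minus small, was -0.01, and it was 0.085 without CB replicate 3. For each mouse the median over the members was taken on log2(CPM + 0.5) relative to the 12-mouse mean. For the large subunit this was -0.11 ± 0.05 for isotype, -0.04 ± 0.05 for anti-Lag3, 0.06 ± 0.06 for anti-PD-L1 and 0.14 ± 0.02 for CB (SD, n = 3). For the small subunit it was -0.07 ± 0.03, 0.03 ± 0.09, -0.04 ± 0.04 and 0.16 ± 0.09 in the same order. The 2 single antibody groups thus stood in opposite order in the 2 subunits, with the large minus small difference at 0.10 ± 0.08 for anti-PD-L1, -0.07 ± 0.08 for anti-Lag3, -0.04 ± 0.02 for isotype and -0.02 ± 0.10 for CB. The individual differences were 0.00, 0.14 and 0.15 with anti-PD-L1 and -0.05, 0.01 and -0.16 with anti-Lag3, so anti-PD-L1 replicate 1 lay between the anti-Lag3 mice.

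Members classed as having a bacterial homologue and members classed as mitochondria-specific were described apart. Mrps36, Mrpl58, Mrps18a and Mrps18b were counted among the latter. Median log2 fold changes between CB and isotype were 0.28 for 30 homologues and 0.19 for 20 mitochondria-specific members of the large subunit. In the small subunit they were 0.33 for 16 and 0.16 for 11 members. Called were 5 of 46 homologues (10.9%) and 1 of the 31 others (3.23%), Mrpl45, all of them higher. Of all genes tested 2.33% were called higher and 4.29% in either direction. The difference between these classes was not tested.

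Against the single antibodies the members were also mostly higher with CB. Between CB and anti-Lag3 2 members were called higher and 0 lower, Mrpl47 (log2 fold change 1.04 ± 0.19, adjusted p = 0.00476) and Mrpl12 (0.52 ± 0.12, adjusted p = 0.0323), where 0.39% of all genes tested were called higher and 0.694% in either direction. The median over the members was 0.15 and 59 of 77 were above 0. Mrpl47 was called in each of the 12 fits without 1 mouse and Mrpl12 in 7, and there was 1 call without CB replicate 1 or 3 or any 1 of the anti-Lag3 mice. In 20 members each CB mouse was higher than each anti-Lag3 mouse and in 2, Mrps16 and Mrpl58, each was lower, against 7.68% and 7.09% of all genes.

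Between CB and anti-PD-L1 0 members were called by edgeR, where 0.37% of all genes were, and 6 had an unadjusted p under 0.05. All 6 were higher (7.79% of the members), against 4.81% of all genes higher and 9.08% in either direction. The smallest p was that of Mrps18c, at 75.3, 83.0 and 99.4 CPM with anti-PD-L1 and 102, 119 and 147 CPM with CB (log2 fold change 0.51 ± 0.15, adjusted p = 0.151). This gene was singled out after its values were seen, and it was called when no filter on low counts was used. The median over the members was 0.15 with 60 of 77 above 0. Mice did not overlap in 13 members that were higher with CB and 1, Mrpl10, that was lower, against 6.94% and 5.75% of all genes.

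With a single antibody against isotype 0 members were called by edgeR in either case. For anti-PD-L1, 0.033% of all genes were called and 10 members, all of the large subunit, had an unadjusted p under 0.05, led by Mrpl35 (log2 fold change 0.53 ± 0.14, adjusted p = 0.281). All 10 were higher (13.0% of the members), against 3.81% of all genes higher and 7.84% in either direction at this threshold. The median over the members was 0.11, with 0.13 over the large and 0.08 over the small subunit, and the mice did not overlap in 14 members that were higher and 3 that were lower, against 5.34% and 6.46% of all genes. For anti-Lag3, 0.0% of all genes were called, and 3 members, Mrpl39, Mrpl35 and Mrps24, had an unadjusted p under 0.05. All 3 were higher (3.9% of the members), near the 2.91% of all genes that were higher and below the 5.21% in either direction. The median was 0.09, with 0.08 over the large and 0.12 over the small subunit, and the mice did not overlap in 9 higher and 0 lower members, against 5.25% and 4.81% of all genes. DESeq2 called 0 members in each of these 2 comparisons and between CB and anti-PD-L1. The 5 comparisons share mice, so their values are set side by side and were not tested against each other.

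**Figure D4:**
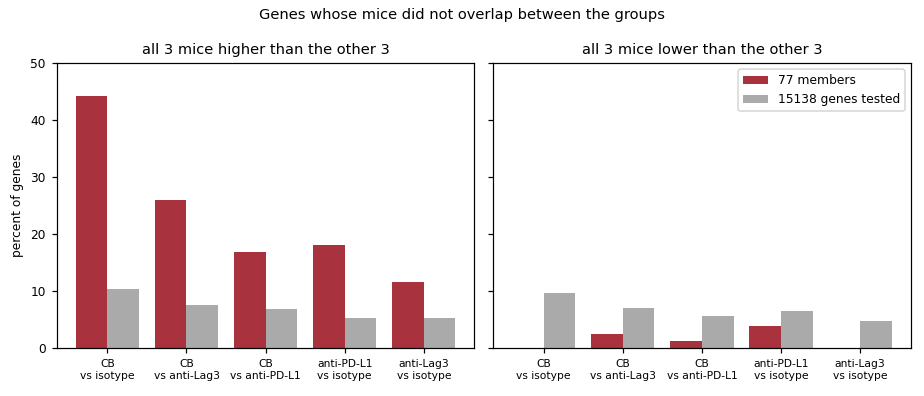
Percent of the 77 members (red) and of all genes tested (grey) in which all 3 mice of the first group were higher (left) or lower (right) than all 3 of the second, for 5 comparisons that share mice. For CB against isotype the members stand at 44.2% against 10.4% of all genes on the left and at 0 against 9.62% on the right.

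Across the 4 groups the members were ordered by the mean of log2(CPM + 0.5), which is a description of order without a test. CB was the highest group in 45 of 77 members against 29.0% of all genes, isotype was the lowest in 45 against 30.0%, and both held in 28 against 14.2%. A test of any difference between the 4 groups called Mrpl47 (adjusted p = 0.00882) and Mrpl12 (adjusted p = 0.00964), where 2.15% of all genes were called. Without CB replicate 1 or CB replicate 3 this test called 0 members. The interaction (CB plus isotype, less anti-Lag3 and anti-PD-L1) was called for 0 members by edgeR and for 0.0% of all genes. It had an unadjusted p under 0.05 for Mrpl47 (0.85 ± 0.27, adjusted p = 0.804) and Mrpl44 (0.76 ± 0.30, adjusted p = 0.804), which is 2.6% of the members against 5.93% of all genes.

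**Figure D5:**
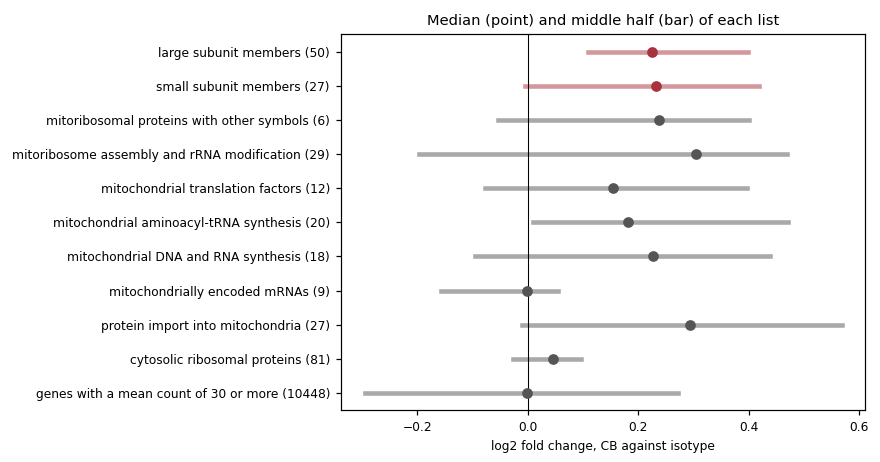
Median (point) and middle range between the quartiles (bar) of the log2 fold changes between CB and isotype (x axis) over the 2 subunits, 8 lists of related genes and all genes averaging at least 30 reads a library, with the number of genes in brackets. The member lists centre at 0.22 and 0.23, the cytosolic ribosomal proteins at 0.05 and the mitochondrially encoded messages at 0.

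The cytosolic ribosomal proteins, which build the ribosomes that translate nuclear messages, lay closer to 0, which was not tested as a difference. Of 81 tested 0 were called by edgeR between CB and isotype, and their median log2 fold change was 0.05. At an unadjusted p under 0.05 there were 9 higher (11.1%) and 2 lower (2.47%), against 7.64% and 7.26% of all genes. Above 0 lay 53 of 81 (65.4%), against 48.8% of all genes. Each CB mouse was higher than each isotype mouse in 6 of 81 (7.41%) and lower in 3 (3.7%), below the 10.4% and 9.62% of all genes. Of 13 messages that mitochondrial ribosomes translate 9 were tested and 0 called (0 higher and 1 lower at an unadjusted p under 0.05), with a median of -0.00. Mt-Nd1 measured 4682, 3758 and 4313 CPM with isotype and 3746, 4343 and 4654 CPM with CB. The other 4 were under 30 reads, and mt-Nd4l, mt-Co3 and mt-Atp8 were listed at 0. Here too the part of mapping and annotation was not tested. Neither mitochondrial ribosomal RNA was called, at log2 fold changes of -0.10 ± 0.10 (mt-Rnr1) and -0.15 ± 0.08 (mt-Rnr2).

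A further list held 6 proteins with other symbols, all of the mitochondrial ribosome apart from the insertase Oxa1l. Of these 0 were called by edgeR (2 higher and 1 lower at an unadjusted p under 0.05). Chchd1 had a log2 fold change of 0.39 ± 0.13 (adjusted p = 0.101), Gadd45gip1 0.41 ± 0.15 (adjusted p = 0.141) and Ptcd3 0.41 ± 0.25 (adjusted p = 0.437). Aurkaip1 had 0.09 ± 0.11 (adjusted p = 0.828), and Oxa1l, the insertase that receives the new chains, -0.10 ± 0.17 (adjusted p = 0.901). Dap3, a GTP-binding protein of the small subunit, went the other way at -0.34 ± 0.13 (adjusted p = 0.195), with 122, 151 and 128 CPM in the isotype and 103, 117 and 97.5 CPM in the CB mice, which did not overlap.

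Factors that make and serve the particle were read from lists of related genes. Between CB and isotype 1 of 29 assembly and ribosomal RNA modification factors (3.45%) was called higher and 0 lower. That share was near the 2.33% of all genes called higher and the 4.29% called in either direction. The called factor was Rcc1l, which acts in assembly of the large subunit, at 15.1, 18.6 and 15.9 CPM with isotype and 36.3, 32.3 and 27.1 CPM with CB (0.95 ± 0.24, adjusted p = 0.0161). Of 12 translation factors 0 were called by edgeR (1 at an unadjusted p under 0.05). Of 20 proteins that charge mitochondrial transfer RNA 1 (5.0%) was called higher, the methionyl-tRNA synthetase Mars2 (1.87 ± 0.45, adjusted p = 0.0131), at 3.62, 4.05 and 5.08 CPM with isotype and 20.8, 16.3 and 9.64 CPM with CB. Of 18 proteins of mitochondrial DNA and RNA synthesis 1 (5.56%) was called higher, Lrpprc, which stabilises mitochondrial messages (0.66 ± 0.12, adjusted p = 0.00161).

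Of 27 proteins of mitochondrial import, which are not all on the route into the matrix, 6 were called higher and 1 lower (25.9%). Of all genes tested 2.33% were called higher and 1.96% lower (4.29% in either direction). The difference between lists was not tested. Higher were the small chaperones of the intermembrane space Timm10 (log2 fold change 1.39 ± 0.23) and Timm9 (0.88 ± 0.17), the outer membrane channel Tomm40 (0.63 ± 0.15), the receptor Tomm70a (0.58 ± 0.12), and the matrix chaperones Hspe1 (0.68 ± 0.09) and Hspa9 (0.50 ± 0.11). Their adjusted p ranged from 2.3e-05 for Hspe1 to 0.00975 for Tomm40. Timm10 measured 15.0, 15.1 and 11.9 CPM with isotype and 42.1, 34.7 and 33.6 CPM with CB, so that the groups stood well apart. Pmpcb, a subunit of the protease that removes the import signal, was lower (-0.66 ± 0.19, adjusted p = 0.0455). The list median was 0.29, beside 0.30 for the assembly factors and 0.15 for the translation factors.

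The promoters of the members were compared because most members moved the same way. RefSeq promoter windows (GRCm38.p6, 250 bases before to 50 after the start) were matched by symbol for 68 of the 77 members, and in 64 of these the bases after the start were found in a GENCODE transcript of the gene. The ETS core CCGGAA, read on both strands, was in 55.9% of the member windows, against 33.2% of the windows of protein-coding genes averaging at least 30 reads a library, 19.1% of all protein-coding genes and 15.2% of all promoters. It was in 56.8% of the large and 54.2% of the small subunit windows. The YY1 core AANATGGCG was in 16.2% of member windows against 6.5%, 3.30% and 2.51% in the same order, and the NRF1 core CGCATGCG in 10.3% against 4.57%, 2.54% and 1.91%. The E-box CACGTG (7.35% against 10.8%, 7.90% and 7.24%), the CCAAT letters (38.2% against 40.1%, 39.0% and 37.9%) and the TATAAA letters (5.88% against 6.28%, 13.3% and 14.2%) were not more common in the members. No searched motif contains another, and a match is a description of letters and not of binding.

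The ETS core was in 0 of the 6 windows of the called members, and the median log2 fold change in CB against isotype was 0.20 over 38 members with it and 0.28 over 30 without it. The 120 bases before the RefSeq start follow for the 4 called members in which no more than 30 of these bases lie in an annotated exon, 5' to 3', with any searched motif in capitals. Those of Mrpl12, Mrpl35 and Mrpl45 hold none, and that of Mrpl20 holds an E-box 33 bases before the start.
Mrpl12, chr11:120484517-120484636, plus strand: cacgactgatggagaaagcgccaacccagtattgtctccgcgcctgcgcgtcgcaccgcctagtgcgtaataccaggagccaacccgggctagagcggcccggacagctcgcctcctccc
Mrpl20, chr4:155802758-155802877, plus strand: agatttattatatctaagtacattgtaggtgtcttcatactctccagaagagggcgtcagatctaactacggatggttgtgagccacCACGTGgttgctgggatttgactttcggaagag
Mrpl35, chr6:71823785-71823904, minus strand: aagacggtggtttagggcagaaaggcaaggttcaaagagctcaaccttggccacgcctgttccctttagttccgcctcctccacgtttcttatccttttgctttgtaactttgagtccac
Mrpl45, chr11:97315596-97315715, plus strand: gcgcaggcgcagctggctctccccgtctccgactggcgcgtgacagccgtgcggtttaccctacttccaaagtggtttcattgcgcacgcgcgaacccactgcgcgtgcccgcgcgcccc

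A further 4 members are shown for contrast because they hold the ETS or the NRF1 core, both of which were more common in the list. None of the stretches that could be shown held a YY1 core. The full promoter windows of Mrpl35, Mrpl58 and Mrps18a each held 1, outside the bases shown. Among the called members 1 of 6 full windows held a YY1 core, that of Mrpl35. Mrpl58 and Mrps18a have an ETS core 17 and 26 bases before the start, Mrpl10 has one 94 bases before it, and Mrpl22 has a pair of ETS cores and an NRF1 core (CGCATGCG, 32 bases before the start). Their log2 fold changes between CB and isotype were -0.15 for Mrpl58, 0.47 for Mrps18a, 0.05 for Mrpl10 and 0.47 for Mrpl22.
Mrpl58, chr11:115403632-115403751, plus strand: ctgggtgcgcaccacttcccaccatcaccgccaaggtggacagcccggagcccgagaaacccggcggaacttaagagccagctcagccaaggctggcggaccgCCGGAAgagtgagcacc
Mrps18a, chr17:46110884-46111003, plus strand: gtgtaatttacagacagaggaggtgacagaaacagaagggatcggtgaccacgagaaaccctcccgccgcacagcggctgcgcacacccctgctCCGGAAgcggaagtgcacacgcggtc
Mrpl10, chr11:97041462-97041581, plus strand: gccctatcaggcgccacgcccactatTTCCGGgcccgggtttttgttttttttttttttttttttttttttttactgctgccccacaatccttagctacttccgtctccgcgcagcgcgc
Mrpl22, chr11:58171544-58171663, plus strand: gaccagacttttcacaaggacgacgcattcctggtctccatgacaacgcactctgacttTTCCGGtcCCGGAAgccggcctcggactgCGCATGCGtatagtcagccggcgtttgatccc

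The members lay on 17 chromosomes, with 11 of them on chromosome 11, and 18 of 77 (23.4%) had the start of a protein-coding gene on the other strand within 1000 bases upstream, against 6.79% of all protein-coding genes and 12.0% of those averaging at least 30 reads a library. Of these neighbours 1 was called between CB and isotype, Ncapd2, which was lower (log2 fold change -0.47, beside 0.19 for Mrpl51, the member 100 bases away). Exonic bases were shared with another counted gene in 24 members, which include Mrps7 and Mrpl47 among the called. Mrpl47 overlaps Actl6a and Ndufb5 on the opposite strand, which had log2 fold changes of 0.13 and 0.09.

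Replicate mice varied little for most members. The median over the members of the coefficient of variation within a group was 11.3%, and mean levels over 12 mice ran from 0.399 CPM for Mrps18b to 310 CPM for Mrpl18, with a median of 72.0 CPM. These are CPM of 3' tags and were not divided by transcript length.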

How the data were processed

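CD4+ T cells sorted from the spleens of 12 mice, 3 in each of 4 groups, were sequenced from 5 ng of RNA with a QuantSeq 3' kit. The authors deposited raw counts per gene. According to the methods, Lexogen made them by trimming with Cutadapt 1.18, mapping with STAR 2.6.1a to GRCm38 and counting with featureCounts 1.6.4, and uniquely mapped reads were kept. The annotation release and the strand setting are not given in the sources used here, so reads of a gene and of an overlapping gene on the other strand cannot be told apart. A second deposited table, of regularised log2 values, was not used. Unused sample columns numbered 0.

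Counts of all 15138 genes with at least 30 reads in sum were fitted with edgeR 4.0.16 (quasi-likelihood test, TMM scaling, 4 group means, no covariate, R 4.3.3). P-values were adjusted over all of these genes by the Benjamini-Hochberg method, and a gene was called at an adjusted p under 0.05. CPM are counts per 1000000 of the TMM-scaled library size. Errors of fold changes are standard errors and those of levels are SD over mice. P-values rest on the spread between 3 mice a group. Groups and replicate numbers came from the labels. Cells were sorted in batches of 4 mice marked by condition, and the labels do not say which mice shared a batch, so no within-batch values could be given. Symbols, biotypes and coordinates came from GENCODE vM21 (GRCm38), to which 52073 of 56691 genes in the table matched.

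The members and lists were chosen with earlier results of these data known. Named members were those called in any comparison, the 5 highest and 5 lowest fold changes between CB and isotype at a mean count of at least 30, and members with a place of their own. From the lists, called genes and every gene of lists of 6 or fewer were named. Alternatives were DESeq2 1.42.0, its size factors, tests against a log2 fold change of 0.2, other filters on low counts, TMM without the gene with most reads, fits of the compared groups alone, a replicate block, subunits by symbol, and leaving out each mouse. The fit was tested on simulated counts with known changes between CB and isotype. It recovered 28.4% of 1.5-fold, 52.2% of 2-fold and 75.8% of 4-fold changes, with 8 false calls. A gene that was not called may therefore still differ.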

Additional observations from a re-analysis of the deposited data

How the results depend on the processing

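Member calls between CB and isotype numbered 6. They numbered 1 (Mrpl12) in tests against a log2 fold change of 0.2 by edgeR and by DESeq2, 8 by DESeq2 against 0, 8 without a filter on low counts, and 5 to 7 with other filters, size factors or the compared groups alone. Leaving out 1 mouse gave 1 to 8. Between CB and anti-Lag3 the 2 calls became 1 in both tests against 0.2, 1 to 2 when 1 mouse was left out, and 3 (with Mrpl44) without a filter. Between CB and anti-PD-L1 there was 1 call (Mrps18c) without a filter. The test of any group called 5 members without a filter and 0 to 2 when 1 mouse was left out. Median log2 fold changes over the members ranged with 1 mouse left out from 0.22 to 0.27 for CB against isotype and from 0.10 to 0.15 for anti-PD-L1 against isotype, and the large minus small difference from -0.034 to 0.085. Signs turned for several members when 1 mouse was left out. Mrps36 ran from -0.86 to 0.21 (above 0 without CB replicate 2). Mrpl10 ran from -0.068 to 0.14 (below 0 without isotype replicate 2 or CB replicate 1) and Mrpl11 from -0.0010 to 0.18 (below 0 without CB replicate 1). Other members turned as well, among them Mrpl21, Mrpl24, Mrpl4, Mrpl52, Mrps14 and Mrps9. Mrps18b, with 94 reads in sum, ran from -5.34 to 2.04. The cause was not tested.

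With the replicate number as a block, 8 members were called between CB and isotype (the 6 with Mrps12, adjusted p = 0.0443, and Mrpl19, adjusted p = 0.0446), 2 between CB and anti-Lag3 and 3 in the test of any group. Samples with the same number did not deviate together (correlations from -0.043 to 0.05), whereas 7 of 12 correlated best with their own number, a hint from the data. The methods describe sorting in batches of 4, and the paper describes an axis of variation between the libraries as largely due to them. The labels do not tie the numbers to these batches, so the correlations do not measure a batch effect. The fit without the block was kept and the part of the sort batch was not tested. Members at a few CPM, such as Mrps18b and Mrps36, had too few reads to show a difference of the size seen in the called members.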
